A study of Mus musculus with 32 samples.

Results

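Macrophages from EG7 tumours grown in hosts that lacked both TNFR1 and, where Tie2-Cre was active, Myd88 were compared with macrophages from EG7 tumours of WT hosts, and the difference shared by 2 sorted populations was measured. The comparison takes 8 of the 32 arrays of the series. The 4 double knockout arrays came from hosts labelled Myd88flox/flox; tie2-Cre; TNFR1-/-, 2 from population A and 2 from population C, and the 4 WT arrays were divided in the same way. Population A was sorted as CD11b+, Ly6C+, MHCII- and population C as CD11b+, Ly6C-, MHCII+. EG7 is a mouse T-cell lymphoma line derived from the EL4 thymoma, and the genotypes are those of the host, not of the transplanted cells. Tie2-Cre is active in endothelium and in most blood cells, so the floxed Myd88 alleles were not removed from macrophages alone, whereas TNFR1-/- is carried by every host cell. The sources used here do not give the age of the mice, or whether WT hosts carried floxed alleles or Cre. Also used are 4 arrays of A and C from TNFR1-/- hosts, 4 from Myd88flox/flox; tie2-Cre hosts (Myd88 cKO), and 10 arrays of CD11b-enriched cells of EG7 tumours from germline Myd88-/- or WT hosts. The labels number the replicates but do not say that they came from separate mice, so the p-values measure the spread between arrays, which may be partly technical.

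Toll-like receptors, with few exceptions, and the interleukin-1 and interleukin-18 receptors signal through the adaptor Myd88, which recruits kinases that lead to the release of NF-kB. TNFR1, encoded by Tnfrsf1a, is a receptor for tumour necrosis factor and reaches NF-kB by another set of adaptors. In macrophages both routes switch on cytokines, acute-phase genes and feedback inhibitors, and macrophages exposed to interleukin-4 or interleukin-13 instead take up the alternatively activated state marked by genes such as Retnla and Mrc1.

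Values are log2 signals per gene, so that a difference of 1 is a signal 2 times as high, and values after ± are standard errors. The double knockout and WT arrays were fitted with limma as the sum of a population and a genotype effect (the 8-array fit). The same contrast was also taken from all 16 sorted arrays fitted as 8 groups, which draws on 4 genotypes for the spread between replicates (the 16-array fit). That fit averages the effects in A and C and, unlike the 8-array fit, leaves a difference between them out of the spread. A call in it thus need not be shared by the populations. The chemokine gene Ccl17 was called (adjusted p = 0.00186 with limma) with a difference of -0.16 in A and 4.1 in C. A gene was called at a Benjamini-Hochberg adjusted p under 0.05 over all 15206 genes tested.

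The gates were visible in the arrays. Ly6c2, which encodes the Ly6C antigen of monocytes, read 12.01 to 12.42 in the 4 arrays of A and 8.15 to 9.66 in those of C, and H2-Ab1, a chain of MHC class II, read 9.74 to 10.88 in A and 12.47 to 12.74 in C. Csf1r and Cd68, macrophage genes, were at 8.90 or above in all 8 arrays. The pair of WT arrays of A agreed less well than the other pairs (r = 0.921 over the genes). The r was 0.96 for A double knockout, 0.977 for C WT and 0.98 for C double knockout. In the 8-array fit limma gave those WT arrays of A the lowest array weights, 0.336 and 0.348. Xist, the RNA of the inactive X chromosome, was high in all 4 WT arrays (9.45 to 10.29), in double knockout array 1 of A (10.22) and array 2 of C (10.44), and low in double knockout array 2 of A (5.92) and array 1 of C (5.19). Eif2s3y, a gene of the Y chromosome, read 6.64 and 7.33 in the 2 double knockout arrays with low Xist and 3.39 and 3.38 in the others. In the WT arrays, all with high Xist, it lay between, at 5.08 and 4.73 in A and 6.29 and 4.40 in C. The hosts of the 2 genotypes thus differed in sex-linked signal as well as in genotype. The part of this in the double knockout against WT was tested only by adding the class of the Xist signal to the fit. Xist read 4.97 to 8.43 in the Myd88 cKO and 5.29 to 9.83 in the TNFR1-/- arrays. The part of sex-linked signal in the comparisons that use these genotypes was not tested.

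Myd88 was lower in the double knockout in both populations. The WT arrays read 10.03 and 9.64 in A and 9.78 and 9.22 in C, and the double knockout arrays 7.78 and 8.32 in A and 8.76 and 7.97 in C. The groups did not overlap, and the common difference was -1.46 ± 0.23, with an adjusted p of 0.0888 in the 8-array fit and 0.00369 in the 16-array fit of limma. Tnfrsf1a read 8.30, 8.09, 8.55 and 7.81 in WT and 7.69, 8.20, 7.55 and 7.70 in the double knockout. Its groups overlapped in A, and its difference of -0.40 ± 0.19 passed neither fit (adjusted p = 0.354 and 0.177). The sources used here do not place the probes of either gene relative to the deleted part, and the Tnfrsf1a signal thus does not check the TNFR1-/- label.

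With the 8 arrays alone, limma called no gene of 15206 (0.0%). The smallest adjusted p was 0.0674, for Ccnd2, and 2191 genes (14.4%) had an unadjusted p under 0.05. The 16-array fit gave the same differences and called 460 genes (3.03%), of which 347 were higher (2.28%) and 113 lower (0.743%) in the double knockout. That count rested on single arrays. Without 1 array it was 38 (WT array 2 of C), 43 (double knockout array 2 of C), 65 (double knockout array 1 of A), 85 (double knockout array 1 of C), 469 (WT array 1 of C), 706 (double knockout array 2 of A), 818 (WT array 2 of A) or 1634 (WT array 1 of A). With the class of the Xist signal as a covariate, chosen after the data were seen, the 16-array fit called 74 genes higher and 19 lower. With array weights the 16-array fit called 14 genes and the 8-array fit 376. In the 8-array fit the weights lowered the part of the WT arrays of A, and double knockout array 2 of A had the highest weight, 3.343. Normalizing the quantiles once more changed the split to 257 higher and 214 lower, a smaller excess of higher over lower calls.

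The genes named below were taken by array values. In 1130 genes (7.43%) both double knockout arrays lay above both WT arrays in A and again in C, and in 735 (4.83%) they lay below. Among these, 49 were at least 1 log2 unit higher (0.322%), 6 of them predicted or small RNA genes, and 16 at least 1 unit lower (0.105%), Myd88 included. The other 15 lower genes and the 15 higher genes of smallest p are named. None passed the 8-array fit, with adjusted p-values of 0.0674 to 0.204. All 30 were called in the 16-array fit. That fit takes the difference from the same double knockout and WT arrays, so the choice of the genes favoured these calls, which are no independent support. The direction of the 30 genes held in every alternative run, which their choice by array values largely fixed in advance. Of the 31 calls with Myd88, 21 were lost in the 16-array fit without WT array 2 of C, 20 without double knockout array 2 of C, 14 without double knockout array 1 of A, 11 without double knockout array 1 of C, 5 without WT array 1 of C and 1 without WT array 1 of A, with adjusted p-values up to 0.159. Myd88, Gpr84, Smpdl3b, Fpr2, Acod1, Retnla, Rrm1, Folr2 and Stat4 kept the call in all 8 of these fits, as did H2ac15 with its WT signal below the filter level. With array weights 23 of the 31 calls were lost, those of Folr2 and Acod1 among them, and with the Xist class as a covariate 13.

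The named genes lower in both populations included innate immune receptors. Gpr84, a receptor for medium-chain fatty acids that inflammatory stimuli switch on, read 8.06 and 7.90 in WT and 6.43 and 7.09 in double knockout arrays of A, and 8.10 and 7.55 against 5.35 and 5.29 in C. All 4 double knockout arrays were below all 4 WT arrays, and the common difference was -1.86 ± 0.26 (adjusted p = 0.0839 in the 8-array and 0.000122 in the 16-array fit of limma). Fpr2, a receptor for formylated peptides and serum amyloid A, read 8.46 and 8.91 against 7.07 and 8.44 in A and 9.31 and 8.90 against 6.26 and 5.77 in C. Double knockout array 2 of A was only just below the lower WT array, and the common difference of -2.01 ± 0.43 stood for -0.93 in A and -3.09 in C, values whose difference was not called. Clec4e, which encodes Mincle, a lectin receptor for mycobacterial glycolipids, read 11.26 and 10.90 against 9.47 and 10.64 in A and 11.27 and 11.26 against 9.40 and 8.03 in C, a difference of -1.79 ± 0.38. Tlr2, the Toll-like receptor for bacterial lipopeptides, read 8.64 and 8.18 against 6.97 and 7.86 in A and 8.76 and 8.56 against 7.74 and 6.97 in C, a difference of -1.15 ± 0.23. Ly6i, a Ly6 surface protein of inflammatory monocytes, read 10.31 and 10.21 against 8.02 and 9.63 in A and 10.24 and 10.16 against 8.46 and 6.78 in C, a difference of -2.01 ± 0.41. In Fpr2, Clec4e, Tlr2 and Ly6i, double knockout array 2 of A was the one of the 4 closest to WT. The inhibitory receptor gene Pilra differed by -1.18 ± 0.25 and the junctional adhesion gene F11r by -1.09 ± 0.26.

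Secreted mediators and enzymes of the inflammatory response were also lower. Tnf, the ligand of TNFR1, read 11.17 and 10.78 in WT and 8.36 and 9.81 in double knockout arrays of A, and 10.98 and 10.84 against 10.31 and 9.65 in C. Its difference was -1.41 ± 0.31 (adjusted p = 0.165 in the 8-array and 0.0195 in the 16-array fit of limma), with -1.89 in A and -0.93 in C. Acod1, whose enzyme makes itaconate, read 10.32 and 10.24 against 9.88 and 9.82 in A and 10.48 and 10.28 against 7.91 and 6.46 in C. Its difference was -0.43 in A and -3.20 in C, without a call for the difference between them, and -1.81 ± 0.49 in common. Sod2, the mitochondrial superoxide dismutase and a textbook NF-kB target, read 10.60 and 10.09 against 8.76 and 9.92 in A and 10.99 and 10.85 against 9.26 and 9.01 in C, a difference of -1.40 ± 0.26. Cfb, complement factor B, differed by -1.27 ± 0.21, and Smpdl3b, a lipid-modifying membrane enzyme, by -1.38 ± 0.20. Nlrp3, the inflammasome sensor, differed by -1.15 ± 0.30, and Nfkbiz, which encodes the NF-kB cofactor IκBζ, by -1.07 ± 0.25. Nlrp3 was the least stable of these, called in 2 of 8 fits of the 16-array design that left out an array. Mmp14, a membrane-bound matrix metalloproteinase, read 9.12 and 8.11 against 7.56 and 8.03 in A and 10.38 and 10.12 against 8.85 and 8.96 in C, a difference of -1.08 ± 0.22.

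**Figure D1:**
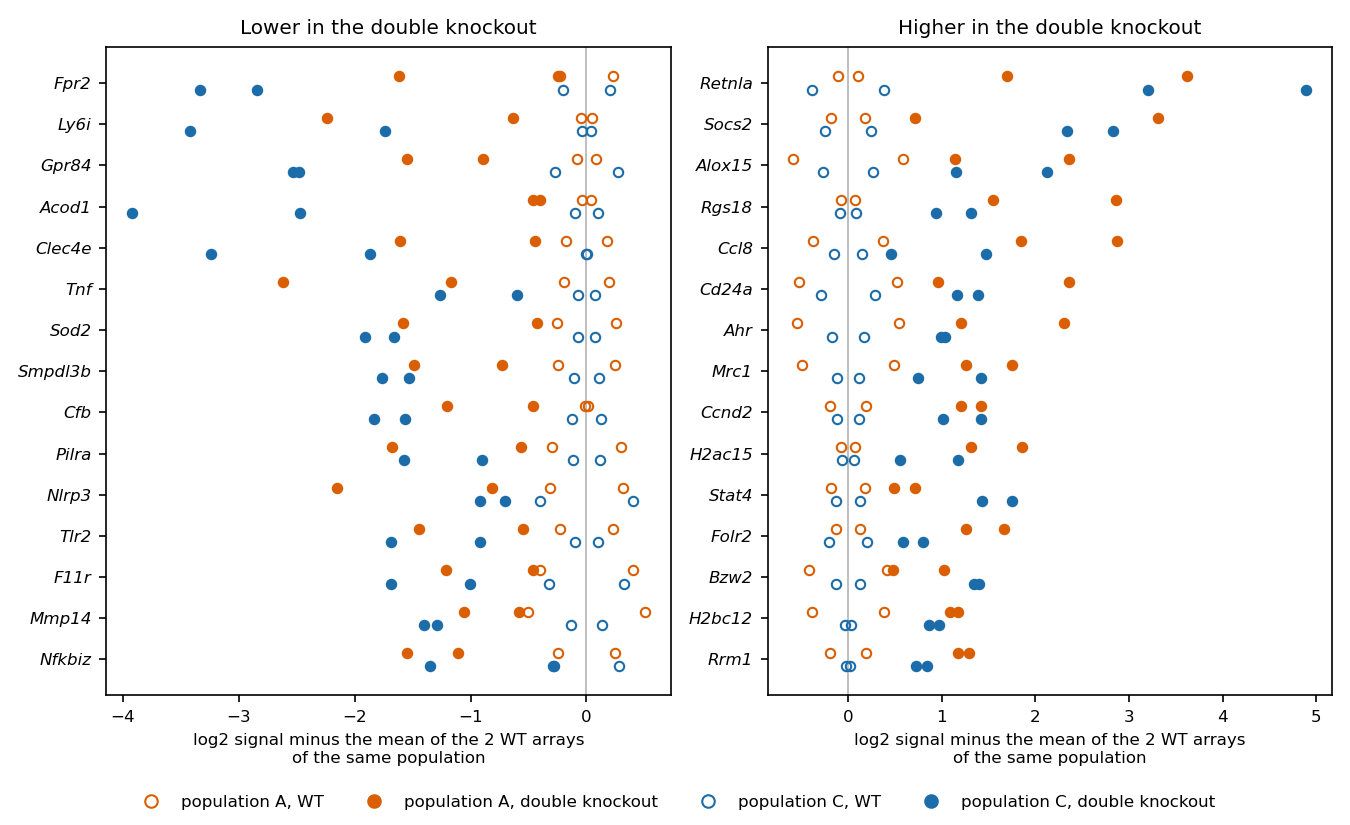
Log2 signal of each array minus the mean of the 2 WT arrays of its population, for the 15 named lower genes (left) and the 15 named higher genes (right). Open circles are WT and filled circles double knockout arrays, orange for population A and blue for C. Every filled circle lies on the same side of the open circles of its colour, and double knockout array 2 of A lies closest to WT for genes such as Fpr2 (8.44 against a lower WT value of 8.46).

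The promoters of the 4 lower and 2 higher named genes with the largest differences among those in the promoter table are shown because these genes moved together in both populations. Each is the 250 bases before the listed start of the gene, 5′ to 3′ in the direction of transcription, from the RefSeq promoter table of GRCm38.p6, which held 12 of the 15 lower and 9 of the 15 higher genes. The windows are chr17:17887574-17887823, plus strand, for Fpr2; chr15:103310439-103310688, minus strand, for Gpr84; chr14:103046762-103047011, plus strand, for Acod1; chr6:123289872-123290121, minus strand, for Clec4e; chr16:48842359-48842608, plus strand, for Retnla; and chr11:82114935-82115184, plus strand, for Ccl8. Capitals mark matches on either strand to any of 5 motifs, the NF-kB consensus, the AP-1 motif TGANTCA, the interferon-stimulated response element, the spaced STAT6 palindrome and the C/EBP motif TTGCNNAA. The matches were a C/EBP motif in Clec4e, and a STAT6 palindrome and a C/EBP motif that did not overlap in Retnla.
Fpr2: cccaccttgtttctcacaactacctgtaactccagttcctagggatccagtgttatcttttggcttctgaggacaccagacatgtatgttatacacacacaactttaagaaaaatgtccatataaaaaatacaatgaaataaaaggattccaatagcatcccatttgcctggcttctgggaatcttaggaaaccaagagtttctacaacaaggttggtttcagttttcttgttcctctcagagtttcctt
Gpr84: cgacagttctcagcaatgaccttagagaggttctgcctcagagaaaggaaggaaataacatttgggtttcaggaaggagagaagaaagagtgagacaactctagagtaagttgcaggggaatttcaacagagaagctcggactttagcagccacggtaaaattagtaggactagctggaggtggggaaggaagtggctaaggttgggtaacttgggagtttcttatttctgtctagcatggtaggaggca
Acod1: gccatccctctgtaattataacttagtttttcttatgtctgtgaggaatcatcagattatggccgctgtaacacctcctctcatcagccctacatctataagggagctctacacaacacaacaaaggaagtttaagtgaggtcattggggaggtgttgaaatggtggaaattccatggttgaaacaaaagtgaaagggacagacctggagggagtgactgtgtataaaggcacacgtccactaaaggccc
Clec4e: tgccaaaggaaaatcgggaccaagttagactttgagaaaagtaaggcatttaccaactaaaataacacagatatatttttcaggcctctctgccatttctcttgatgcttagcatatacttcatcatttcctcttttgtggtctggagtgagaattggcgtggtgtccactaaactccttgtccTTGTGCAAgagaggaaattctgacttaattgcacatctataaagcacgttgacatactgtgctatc
Retnla: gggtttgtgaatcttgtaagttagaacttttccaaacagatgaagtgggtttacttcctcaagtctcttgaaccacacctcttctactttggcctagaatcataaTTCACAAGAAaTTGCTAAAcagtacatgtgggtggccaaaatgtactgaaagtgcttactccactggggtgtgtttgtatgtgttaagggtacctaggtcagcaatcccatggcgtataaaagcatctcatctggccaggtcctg
Ccl8: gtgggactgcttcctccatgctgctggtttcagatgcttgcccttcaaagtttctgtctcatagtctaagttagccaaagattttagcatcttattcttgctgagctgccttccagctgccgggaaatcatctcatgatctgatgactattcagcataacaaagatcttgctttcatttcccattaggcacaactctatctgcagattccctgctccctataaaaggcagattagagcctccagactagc

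The NF-kB consensus was found upstream of Sod2, Tlr2, Smpdl3b and Nlrp3, 4 of the 12 named lower genes with an entry, and of 0 of the 9 named higher genes. It is in 5.0% of the 11884 genes tested that have an entry, in 7.95% of the 88 called lower in the 16-array fit and in 2.22% of the 270 called higher. The 60 bases around these matches, chosen after the matches were seen, are given with the consensus in capitals, at chr3:83841746-83841805, minus strand, for Tlr2; chr4:132757292-132757351, minus strand, for Smpdl3b; chr11:59541358-59541417, plus strand, for a start of Nlrp3; and chr17:13007731-13007790, plus strand, for Sod2. In Tlr2 the capitals hold 2 overlapping matches.
Tlr2: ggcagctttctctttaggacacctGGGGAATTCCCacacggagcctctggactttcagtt
Smpdl3b: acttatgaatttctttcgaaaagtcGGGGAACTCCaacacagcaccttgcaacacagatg
Nlrp3: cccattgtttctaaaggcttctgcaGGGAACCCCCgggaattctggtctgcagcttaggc
Sod2: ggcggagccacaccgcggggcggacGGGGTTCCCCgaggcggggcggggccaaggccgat
Of the 27025 genes in the table, 4.46% hold the NF-kB consensus, 7.82% the AP-1 motif, 3.46% the interferon element, 6.76% the STAT6 palindrome and 10.8% the C/EBP motif. Among the genes called lower the AP-1 motif is in 11.4%, against 6.56% of the genes tested, and the interferon element in 9.09%, against 3.32%. The STAT6 palindrome is in 5.92% of the genes tested and 5.93% of those called higher, and the C/EBP motif in 9.74% of the genes tested, 18.2% of those called lower and 8.52% of those called higher. A match describes these letters only, and no binding was measured.

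Among the lists of related genes, the acute-phase, formyl peptide and antimicrobial genes were lowest, with a median difference of -0.86 over 13 members tested against 0.01 over all genes. The median was -0.44 in A and -1.7 in C. In the 16-array fit 7 of the 13 were called lower, where 0.743% of all genes were, and none higher. Besides Gpr84, Fpr2, Acod1 and Cfb these were Saa3, Hp and Slpi. List members beyond the 2 of smallest p in each list were chosen for naming after their values were seen. Saa3, an acute-phase serum amyloid, read 9.69 and 8.48 in WT and 7.92 and 9.23 in double knockout arrays of A, and 10.18 and 10.84 against 7.35 and 6.33 in C. It overlapped in A and lay far below WT in C, and its common difference was -2.09 ± 0.60. Hp, haptoglobin, read 9.71 and 8.84 against 7.29 and 8.89 in A and 8.28 and 8.32 against 5.97 and 5.59 in C, the same arrangement. Pglyrp1 and Hdc were the 2 members with higher values, by 1.08 ± 0.43 and 0.64 ± 0.34, and were not called. Without WT array 2 or double knockout array 2 of C, the 16-array fit called 4 of the 13 lower, and with array weights 3.

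NF-kB targets and feedback regulators were mostly lower by smaller amounts. Of 27 members tested 23 had a lower value and 4 a higher value, with a median of -0.36. At an unadjusted p under 0.05, 14 were lower and 1 higher, where 4.94% and 9.47% of all genes were, and 4 were called lower in the 16-array fit: Sod2, Nfkbiz, Tnfaip2 and Marcksl1. The inhibitors that NF-kB induces against itself were below WT without being called, Nfkbia by -0.67 ± 0.25, Tnip1 by -0.70 ± 0.17 and Tnfaip3, the ubiquitin-editing enzyme A20, by -0.53 ± 0.16. Cyld, a deubiquitinase that restrains NF-kB, was above WT by 0.65 ± 0.26. The 16-array fit called 0 of them lower without double knockout array 2 of C, 1 without WT array 2 of C or double knockout array 1 of A, 2 without WT array 1 or double knockout array 1 of C, 7 without double knockout array 2 of A, 8 without WT array 2 of A, none with array weights, 2 with the Xist class and 11 after repeating quantile normalization, where the median was -0.51.

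Of 21 cytokine genes 4 were called lower in the 16-array fit (Tnf, Il1a, Il10 and Il12a), where 0.743% of all genes were, and 1 higher (Csf1), where 2.28% were. Il10, the anti-inflammatory cytokine, read 6.59 and 6.42 in WT and 5.38 and 6.12 in double knockout arrays of A, and 7.57 and 7.71 against 6.90 and 6.44 in C, a difference of -0.86 ± 0.18 without overlap. Il1b, a main product of inflammatory macrophages, was below WT by -0.84 ± 0.26 and not called (adjusted p = 0.0786 in the 16-array fit of limma). Csf1, the growth factor of macrophages, read 7.26 and 6.82 against 8.55 and 7.97 in A and 6.83 and 5.92 against 7.07 and 7.24 in C, a difference of 1.0 ± 0.22. Of 14 chemokine genes 1 was called, Cxcl2, a chemokine for neutrophils, at -0.59 ± 0.15. Ccl5 was below WT by -0.87 ± 0.18 and Ppbp above by 0.90 ± 0.22, both uncalled. Without WT array 2 of C, or double knockout array 2 of C, or with array weights, none of the 21 cytokine genes was called, and without double knockout array 1 of A or of C, or with the Xist class, 2 were. No chemokine was called lower with array weights, with the Xist class, or without double knockout array 1 of A or any 1 array of C.

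Of 33 receptors and adaptors of the pathway itself, 4 were called lower in the 16-array fit and none higher, where 0.743% and 2.28% of all genes were, and the median was -0.16. These were Myd88, Tlr2, Tnfrsf1b and Irak3. Tnfrsf1b, the other TNF receptor, read 10.13 and 9.50 against 8.86 and 9.41 in A and 10.15 and 9.89 against 9.50 and 8.94 in C, a difference of -0.74 ± 0.19. Irak3, an inhibitory kinase of the Myd88 complex, differed by -0.73 ± 0.21. Il1r2, the decoy receptor of interleukin-1, was above WT by 1.23 ± 0.38 and not called (adjusted p = 0.0878 in the 16-array fit of limma). Tlr4, Traf6 and Ikbkb lay between 0.00 and 0.25. Of 14 pattern recognition C-type lectins, Clec4e and Clec4d (-1.08 ± 0.30), neighbours on 1 chromosome, were called lower and none higher. Leaving out double knockout array 1 of A, WT array 2 of C or double knockout array 2 of C left 1 pathway gene called, as did array weights, and leaving out WT array 1 of C or adding the Xist class left 2. Of the lectins, none was called with array weights or without WT array 2 of C, and 1 without double knockout array 1 of A, WT array 1 of C or either double knockout array of C.

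The named genes higher in both populations included genes of alternative activation. Retnla, a secreted protein induced by interleukin-4 and a standard marker of the alternatively activated state, read 7.25 and 7.03 in WT and 10.76 and 8.84 in double knockout arrays of A, and 6.59 and 7.36 against 10.18 and 11.87 in C. No other named gene differed by more: 3.36 ± 0.48 (adjusted p = 0.0839 in the 8-array and 0.00326 in the 16-array fit of limma). Mrc1, the mannose receptor, read 7.62 and 6.64 against 8.88 and 8.39 in A and 10.33 and 10.09 against 10.96 and 11.63 in C, a difference of 1.30 ± 0.24. Folr2, a folate receptor of tissue macrophages, read 6.18 and 6.44 against 7.98 and 7.57 in A and 9.32 and 9.72 against 10.11 and 10.32 in C, a difference of 1.08 ± 0.19. Mrc1 and Folr2 were also the 2 of 24 mature macrophage markers called higher in the 16-array fit, where 2.28% of all genes were. Cx3cr1 was the 1 called lower, where 0.743% of all genes were. The median of those markers was 0.45 in A and -0.17 in C. Ccl8, a chemokine, read 5.98 and 6.72 against 9.22 and 8.20 in A and 9.90 and 10.19 against 10.50 and 11.52 in C, a difference of 1.66 ± 0.35. Socs2, an inhibitor of cytokine receptor signalling, read 5.32 and 4.96 against 8.45 and 5.86 in A and 6.09 and 5.60 against 8.18 and 8.67 in C, a difference of 2.30 ± 0.44. Alox15, the 12/15-lipoxygenase of eosinophils and alternatively activated macrophages, read 10.77 and 9.60 against 12.54 and 11.33 in A and 5.74 and 6.27 against 7.16 and 8.13 in C, a difference of 1.70 ± 0.33. Retnla, Socs2 and Alox15 were each higher in double knockout array 1 of A than in array 2.

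Of 25 alternative activation genes tested, 12 were called higher in the 16-array fit, where 2.28% of all genes were, and none lower. The median difference was 0.84, but it was 0.12 in A and 0.96 in C. Beyond Retnla, Mrc1, Folr2, Ccl8, Socs2 and Alox15, the called members Ccl17, Ccl22, Ccl24, Mgl2, Cd209d and Irf4 were higher mainly in C. Ccl24 read 7.06 and 6.71 in WT and 8.49 and 7.21 in double knockout arrays of A, and 7.90 and 7.06 against 9.91 and 11.77 in C, a difference of 2.16 ± 0.54. Arg1 (0.68 ± 0.30) and Chil3 (1.35 ± 0.41), textbook markers of the same state, were above WT without being called. The 16-array fit called 4 of the 25 without WT array 2 of C and 5 without double knockout array 2 of C, and 3 with array weights.

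Markers of eosinophils moved with these genes in population A. The mean of 18 eosinophil and mast cell markers was 6.07 and 5.72 in WT and 7.18 and 6.27 in double knockout arrays of A. It was 6.53 and 7.01 in TNFR1-/- and 6.83 and 6.4 in Myd88 cKO arrays of A, so the single knockouts shared the higher mean. In the 4 WT and double knockout arrays of C it was 4.96 to 5.24. Siglecf, a lectin of eosinophils, read 8.20 and 7.0 against 10.26 and 8.55 in A, and Ccr3, the eotaxin receptor, 7.84 and 6.76 against 10.19 and 8.94. Il13, which encodes the cytokine that acts beside interleukin-4, read 7.48 and 7.58 against 10.78 and 9.18 in A and 6.47 to 6.95 in C. Double knockout array 1 of A was the highest of the 8 for these 3 genes. The mast cell genes Mcpt4, Tpsb2 and Fcer1a stayed between 3.08 and 4.33 in all 8, below the 40th percentile of the probe sets (4.92 to 5.14). Cpa3, another mast cell gene and 1 of the 2 list members of smallest p, was above WT in common and not called. In C, Siglecf stayed between 5.01 and 5.92 and Ccr3 between 4.51 and 4.96, while Retnla, Socs2 and Alox15 were higher there too. Rnase2a, classed with the eosinophil genes, read 4.57 and 4.20 in WT and 9.59 and 11.32 in double knockout arrays of C. It did not pass the filter and was not tested. Of 13 listed eosinophil and mast cell markers tested, 10 had a higher common value and 3 a lower one, and the median was 0.60. In the 16-array fit 1 of them (Alox15) was called. Rgs18, Cd24a and Ahr showed the same pattern of arrays in A as Siglecf. Rgs18, a regulator of G-protein signalling, read 6.54 and 6.69 against 9.48 and 8.16 in A and 5.79 and 5.61 against 7.01 and 6.64 in C, a difference of 1.66 ± 0.29. Cd24a differed by 1.47 ± 0.31 and Ahr, the aryl hydrocarbon receptor, by 1.38 ± 0.29. The part of eosinophils in the differences in A was not tested, and in bulk arrays a change in the number of cells of a type cannot be told apart from a change in RNA per cell.

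Cell cycle genes formed the other group of higher genes. All 27 members tested had a higher value in the double knockout, where 51.1% of all genes did. Their median difference was 0.58, with 0.68 in A and 0.33 in C. In the 16-array fit 12 were called higher and none lower, and 15 were above WT without overlap in both populations, where 7.43% of all genes were. Rrm1, the large subunit of ribonucleotide reductase, read 6.53 and 6.15 in WT and 7.51 and 7.63 in double knockout arrays of A, and 6.86 and 6.82 against 7.68 and 7.57 in C. Its difference was 1.01 ± 0.14 (adjusted p = 0.0839 in the 8-array and 0.00534 in the 16-array fit of limma). Kif11, a motor of the mitotic spindle, read 5.48 and 5.63 against 6.54 and 6.54 in A and 5.43 and 5.83 against 6.41 and 6.37 in C, a difference of 0.87 ± 0.13. Ccnb2, a mitotic cyclin, read 6.88 and 6.85 against 7.80 and 7.80 in A and 7.07 and 7.38 against 7.96 and 7.88 in C. The pair of double knockout arrays of each population gave like values for these 3 genes. The replication helicase genes Mcm2, Mcm4, Mcm5, Mcm6 and Mcm7 were called higher, by 0.59 to 0.78. Aurka, Bub1b and Cenpf, which act at the spindle, differed by 0.02 to 0.06 and were not called. The 16-array fit called 4 of the 27 without double knockout array 1 of A, WT array 2 of C or either double knockout array of C, 7 without WT array 1 of C, 4 with the Xist class as a covariate and 1 with array weights.

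Ccnd2, the D-type cyclin that drives entry into the cycle, had the smallest p of all genes. It read 6.56 and 6.17 in WT and 7.57 and 7.79 in double knockout arrays of A, and 6.97 and 6.74 against 7.87 and 8.27 in C, a difference of 1.26 ± 0.15. The histone gene H2bc12, whose near-identical copies may share probes, was higher too (1.03 ± 0.16). H2ac15, another histone gene, read 4.32 to 4.71 in WT arrays, below the 40th percentile of each sorted array's probe sets (4.92 to 5.14), and 5.2 to 6.25 in double knockout arrays. It passed the filter through the latter alone, so its difference of 1.23 ± 0.20 is no measured fold. Bzw2, a regulator of translation, differed by 1.06 ± 0.21, and Stat4, which relays interleukin-12, by 1.1 ± 0.21. Ccnd2 lies 1.78 Mb from Tnfrsf1a and Clec4e 2.07 Mb from it. Within 10 Mb of Tnfrsf1a 7 of 191 genes tested were called in the 16-array fit (3.66%), and within 10 Mb of Myd88 6 of 137 (4.38%), against 3.03% of all genes.

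Markers of T lymphocytes and of the EG7 line, which is of that lineage, moved with the cell cycle genes in population A. The mean of 16 such markers was 6.25 and 6.11 in WT and 6.65 and 6.67 in double knockout arrays of A, and 5.74 and 6.06 against 5.87 and 6.11 in C. Cd3e read 7.32 and 7.16 against 8.55 and 8.64 in A and 6.33 and 6.94 against 6.78 and 7.31 in C, and Cd3g 6.44 and 6.93 against 8.39 and 8.49 in A and 6.41 and 6.47 against 6.42 and 7.09 in C. In C the WT and double knockout groups overlapped for both. Cd3e, Cd3g and Lat were the 3 of 14 markers tested that were called higher in the 16-array fit, where 2.28% of all genes were, none being lower, and the list's median was 0.25. None of the 14 was called with array weights and 2 were with the Xist class. Rhox5 and Cd3d, further members of this list of T lymphocyte and EG7 line markers, had common differences of 0.27 and 0.34 and were not called. The Rhox5 value stood for 0.69 in A and -0.15 in C, without a call for the difference between them. In A, Rhox5 read 5.38 and 5.73 in WT and 6.29 and 6.2 in double knockout arrays, without overlap. Cd3d differed by 0.35 in A and 0.33 in C, and its groups overlapped in both. The part of tumour or T cells in the cell cycle difference was not tested.

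**Figure D2:**
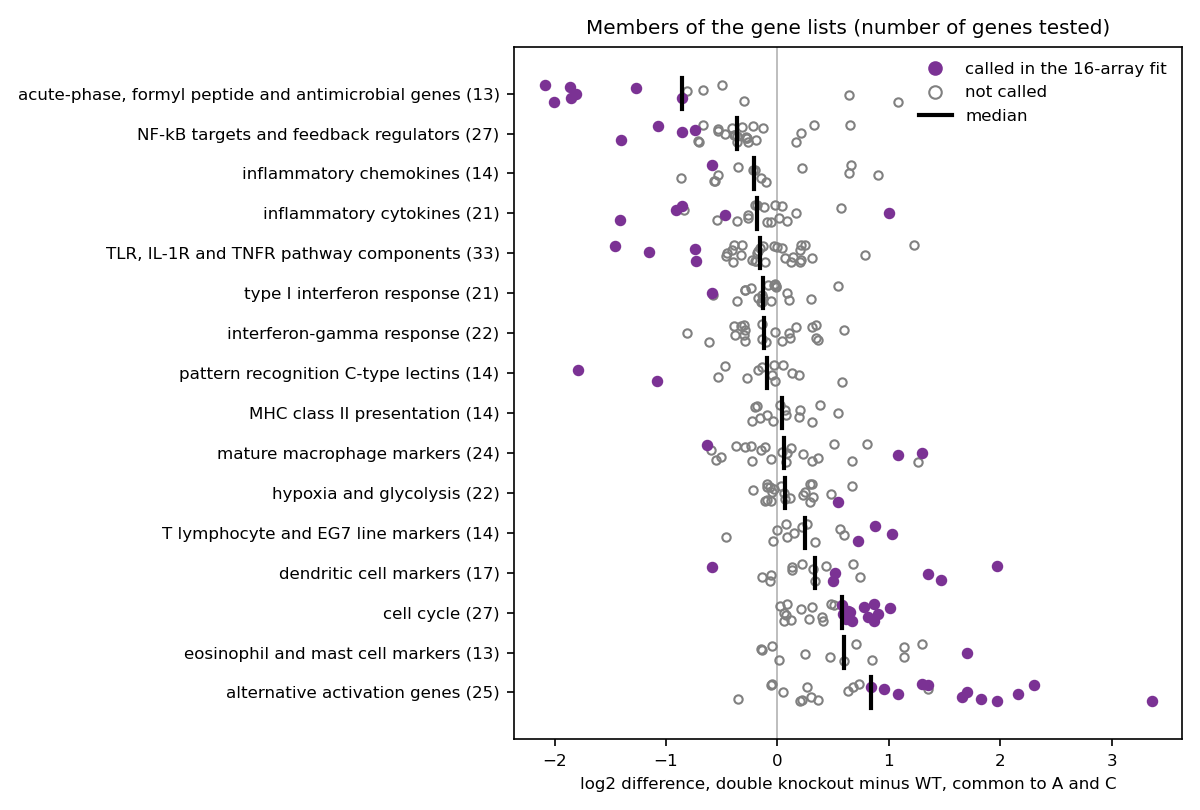
Log2 difference, double knockout minus WT, common to A and C, of each member of 16 gene lists, with the number of genes tested in brackets. Filled circles were called in the 16-array fit and the black bar is the median, which runs from -0.86 for acute-phase genes to 0.84 for alternative activation genes.

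**Figure D3:**
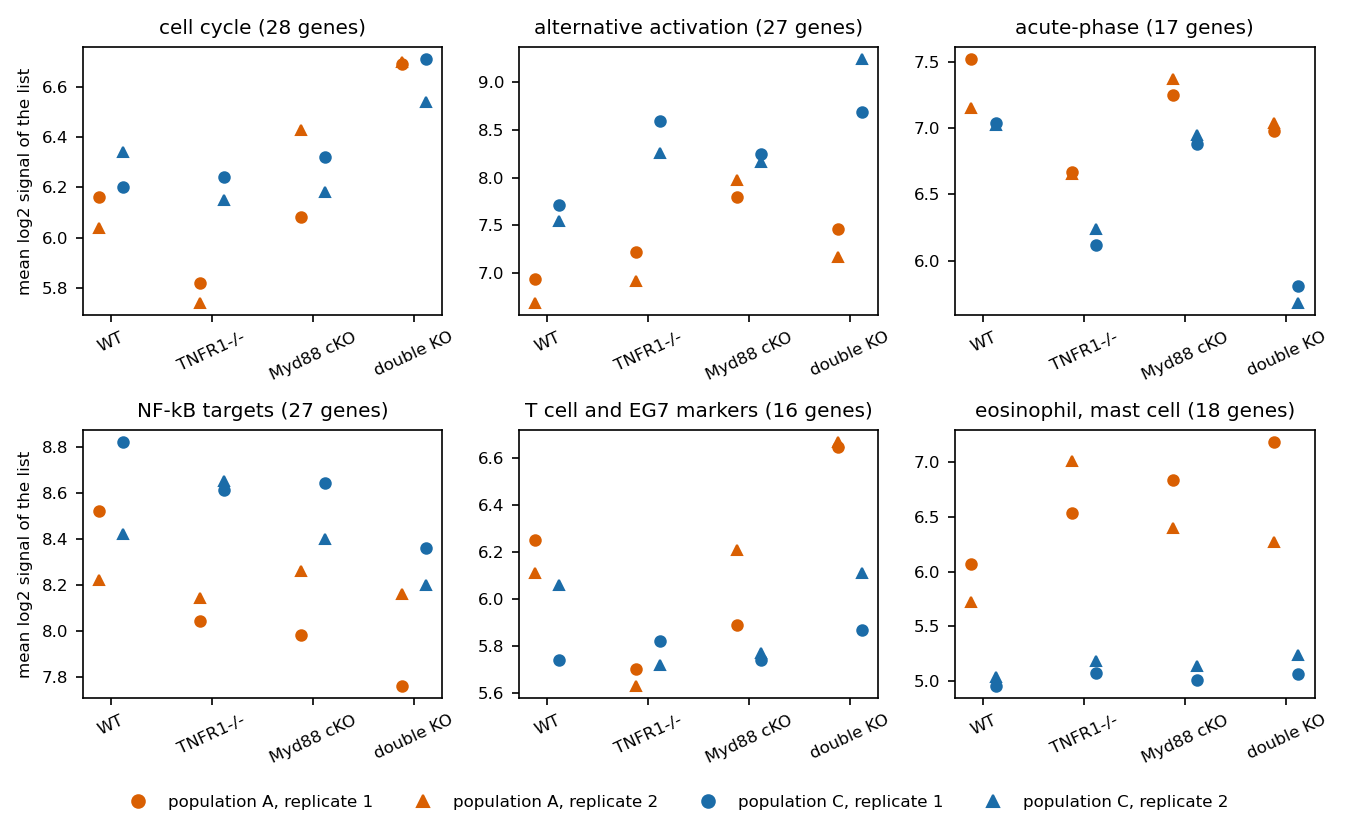
Mean log2 signal of all measured members of 6 lists in each of the 16 sorted arrays, by genotype of the host, orange for population A and blue for C, with a circle for replicate 1 and a triangle for replicate 2. The cell cycle mean of the double knockout arrays (6.54 to 6.71) was above all other arrays, and the T cell and EG7 mean was highest in the double knockout arrays of A (6.65 and 6.67).

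The cell cycle mean was 6.54 to 6.71 in the 4 double knockout arrays, 6.04 to 6.34 in WT, 5.74 to 6.24 in TNFR1-/- and 6.08 to 6.43 in Myd88 cKO arrays. Interferon-gamma response genes (22 tested, median -0.12) and MHC class II genes (14 tested, median 0.04) had none called in the 16-array fit. Of 21 type I interferon genes 1 was called, Bst2, at -0.59 ± 0.16, and of 22 hypoxia and glycolysis genes 1, the phosphofructokinase gene Pfkp, at 0.54 ± 0.16. Of 17 dendritic cell markers 5 were called higher and 1 lower, where 2.28% and 0.743% of all genes were. The higher ones were Ccl17, Ccl22 and Cd24a, described above, with Batf3 and Fscn1, and the lower one was Bst2. With array weights 1 of the 17 was called, and 3 with the Xist class as a covariate. The migratory dendritic cell receptor Ccr7 read 8.35 and 8.44 in WT and 10.16 and 10.43 in double knockout arrays of C, and 7.39 and 6.94 against 6.55 and 6.93 in A. Immediate-early and dissociation stress genes had none called of 24, with a median of 0.08.

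The effect was tested for a difference between the populations, coded as the effect in C minus that in A. limma called 5 of 15206 genes (0.0329%), 3 with a higher effect in C (0.0197%), each above WT in C, and 2 with a lower one (0.0132%). Ccl17, a chemokine for CCR4-bearing T cells, read 5.22 and 4.83 in WT and 4.93 and 4.79 in double knockout arrays of A, but 5.99 and 5.96 against 9.80 and 10.35 in C, a difference between the effects of 4.26 ± 0.31 (adjusted p = 0.002). Mgl2, a galactose-binding lectin also named CD301b, differed in the same way by 3.66 ± 0.31 (adjusted p = 0.00406 with limma). Cd209d, a DC-SIGN relative, differed by 2.21 ± 0.26 (adjusted p = 0.0311 with limma). In C the TNFR1-/- arrays were above WT as well, by 2.63 for Ccl17, 2.36 for Mgl2 and 2.03 for Cd209d. The Myd88 cKO arrays of C differed from WT by 0.98, 0.66 and -0.48 in the same order. H2-M2, a non-classical MHC class I gene, read 6.78 and 6.52 against 7.87 and 7.09 in A and 9.29 and 10.18 against 6.80 and 7.06 in C. It was thus above WT in A and below WT in C (-3.64 ± 0.46, adjusted p = 0.046), and Gdpd1 was arranged alike (-2.20 ± 0.25, adjusted p = 0.0311). In A, the signals of Ccl17 and Cd209d lay at about the 40th percentile of the probe sets (4.92 to 5.14). No gene was called without either WT array of C. Without double knockout array 2 of C, WT array 1 of A or double knockout array 1 of A 2 were called, without WT array 2 of A 9, and without double knockout array 2 of A 87.

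**Figure D4:**
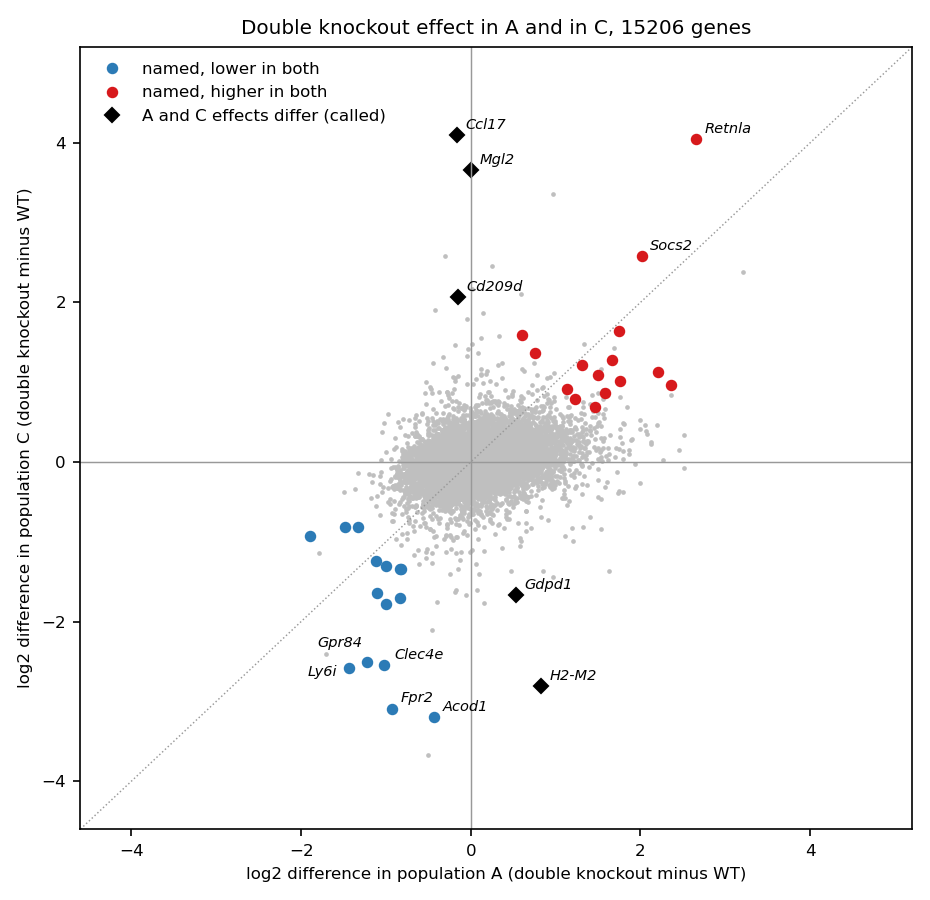
Log2 difference, double knockout minus WT, in population A (horizontal) and in C (vertical) for the 15206 genes tested, each from 2 against 2 arrays, with a dotted line where both are equal. Blue and red circles are the named genes, which lie in the quadrants of a shared direction by the way they were chosen, and black diamonds are the 5 genes whose effects differed between the populations, such as Ccl17 (4.26) and H2-M2 (-3.64).

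The double knockout was also set against each single knockout directly. Against Myd88 cKO, 107 of 15202 genes were called (0.704%), 43 higher (0.283%) and 64 lower (0.421%). H2-M2 read 7.87 and 7.09 in double knockout and 9.03 and 10.54 in Myd88 cKO arrays of A, and 6.80 and 7.06 against 10.68 and 10.58 in C, a difference of -3.00 ± 0.36 (adjusted p = 0.01). In TNFR1-/- arrays it read 5.68 and 5.71 in A and 6.89 and 6.08 in C, below the Myd88 cKO arrays as well. Ctsk, the collagen-degrading cathepsin K, differed by -1.66 ± 0.21 (adjusted p = 0.0116), Slc7a11, the cystine transporter, by -1.66 ± 0.23 (adjusted p = 0.0148) and Ms4a7, a surface protein of macrophages, by -1.62 ± 0.21 (adjusted p = 0.0133). Rnf128, a ubiquitin ligase, differed by -1.76 ± 0.21 (adjusted p = 0.01), and of the named lower genes Mmp14 was called, at -1.29 (adjusted p = 0.00922). Gpnmb, Ms4a7 and Pf4 were the 3 of 24 mature macrophage markers called lower than in Myd88 cKO, and none was higher. The genes called higher included Ccnd2 (1.51 ± 0.24, adjusted p = 0.0259) and Slc7a5, a transporter of large amino acids (1.36 ± 0.15, adjusted p = 0.00922). Cd3g (1.26 ± 0.21, adjusted p = 0.0307) and the T-cell receptor segment Trav9d-3 (1.24 ± 0.20, adjusted p = 0.0259) were among them, as were 4 of 27 cell cycle genes. H2ac15 was called as well, against Myd88 cKO arrays below the 40th percentile of the probe sets. Without Myd88 cKO array 1 of C no gene was called. The count was 15 without Myd88 cKO array 2 of C, 22 without double knockout array 2 of C and 28 without array 1 of C, and 171 without double knockout array 1 of A.

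Against TNFR1-/-, 9 of 15135 genes were called (0.0595%). Myd88 was the only called gene that was lower (0.00661%), by -1.52 ± 0.18 (adjusted p = 0.0279). Of the 8 that were higher (0.0529%), 4 were cell cycle genes. Rrm2, the small subunit of ribonucleotide reductase, read 7.79 and 7.54 in double knockout and 6.06 and 6.13 in TNFR1-/- arrays of A, and 6.95 and 7.17 against 6.23 and 6.03 in C, a difference of 1.25 ± 0.14 (adjusted p = 0.0279). Rrm1 differed by 1.16 ± 0.15 (adjusted p = 0.0334) and Kif11 by 0.96 ± 0.11 (adjusted p = 0.0279). Shmt2, the mitochondrial enzyme that feeds one-carbon units into nucleotide synthesis, differed by 1.23 ± 0.16 (adjusted p = 0.0334), and Sfxn1, a mitochondrial serine transporter, by 0.99 ± 0.12 (adjusted p = 0.0282). Beside this, the T-cell and EG7 marker mean was 5.70 and 5.63 in the TNFR1-/- arrays of A and 6.65 and 6.67 in the double knockout arrays, and 5.82 and 5.72 against 5.87 and 6.11 in C. The named lower genes were not called in this contrast, and their median difference was -0.21. No gene was called without TNFR1-/- array 2 of C, either TNFR1-/- array of A, either double knockout array of A or double knockout array 1 of C, and 18 were called without TNFR1-/- array 1 and 14 without double knockout array 2 of C.

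Each single knockout was compared with the same WT arrays, so the following values stand side by side and are not independent of the double knockout values. Xist differed from WT by -3.93 ± 0.58 in Myd88 cKO (adjusted p = 0.0265 with limma) and by -3.48 ± 0.73 in TNFR1-/- (adjusted p = 0.13). The part of sex-linked signal in the values below was not tested. TNFR1-/- against WT called 18 of 15188 genes (0.119%), 6 higher (0.0395%) and 12 lower (0.079%), with 9.54% at an unadjusted p under 0.05, and Myd88 cKO against WT 62 of 15249 (0.407%). Leaving out 1 array gave 2 (TNFR1-/- array 1 of C) to 25 (WT array 2 of A) and 4 (Myd88 cKO array 1 of C) to 60 (WT array 2 of A). Gpr84 differed by -2.28 ± 0.15 in TNFR1-/- (adjusted p = 0.000262), -0.33 ± 0.17 in Myd88 cKO and -1.86 ± 0.26 in the double knockout. Fpr2 differed by -1.73 ± 0.20, -0.60 ± 0.16 and -2.01 ± 0.43, and Sod2 by -1.61 ± 0.20, -0.39 ± 0.17 and -1.40 ± 0.26, in the same order. For these genes the TNFR1-/- value was the nearer to that of the double knockout. Nfkbiz differed by 0.20 ± 0.20 in TNFR1-/-, -1.07 ± 0.18 in Myd88 cKO (adjusted p = 0.0311) and -1.07 ± 0.25 in the double knockout, and Tnf by -0.81 ± 0.31, -1.06 ± 0.18 (adjusted p = 0.0311) and -1.41 ± 0.31. Nfkbiz was thus near WT in TNFR1-/- and below it in both genotypes with the Myd88 deletion. For Tnf the TNFR1-/- value, which was not called (adjusted p = 0.436), stood for -1.66 in A and 0.04 in C, where TNFR1-/- arrays read 10.88 and 11.01. Acod1 differed by -0.26 ± 0.28, -0.09 ± 0.13 and -1.81 ± 0.49. Its TNFR1-/- value was 0.41 in A and -0.94 in C, where the arrays read 9.21 and 9.68, below both WT arrays and above both double knockout arrays. Retnla differed by 2.10 ± 0.22 in TNFR1-/- (adjusted p = 0.00855), 2.16 ± 0.37 in Myd88 cKO (adjusted p = 0.0334) and 3.36 ± 0.48 in the double knockout. Socs2 differed by 1.95 ± 0.32, 2.12 ± 0.31 (adjusted p = 0.0246) and 2.30 ± 0.44, and Mrc1 by 0.69 ± 0.28, 1.55 ± 0.32 and 1.30 ± 0.24. Rrm1 differed by -0.16 ± 0.13, 0.28 ± 0.18 and 1.01 ± 0.14, and Ccnd2 by -0.18 ± 0.30, -0.25 ± 0.25 and 1.26 ± 0.15. For these 2 genes neither single knockout was called. The TNFR1-/- value of Ccnd2 was -1.05 in A and 0.68 in C, where the arrays read 7.37 and 7.71, above both WT arrays.

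**Figure D5:**
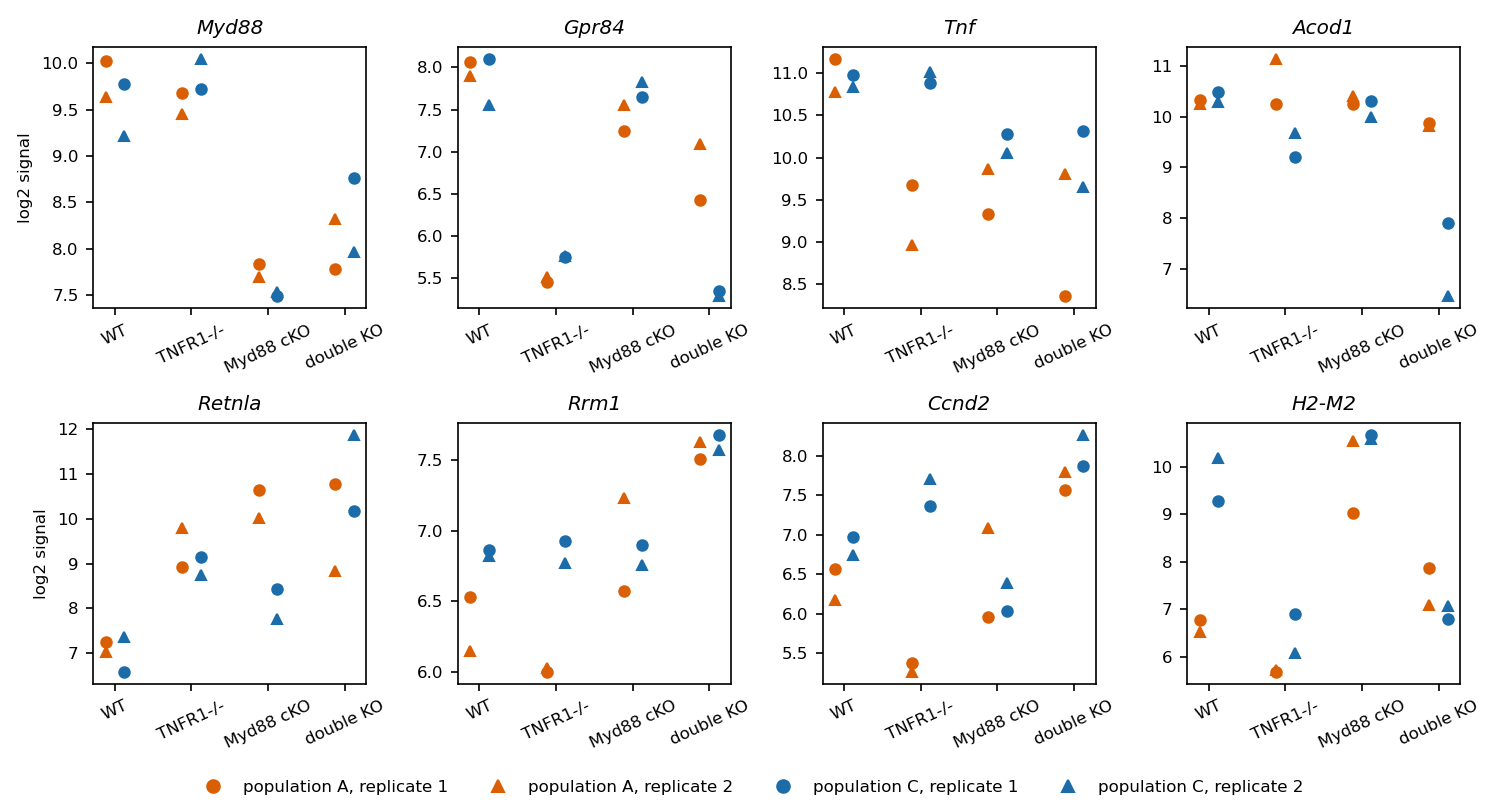
Log2 signal of 8 genes in each of the 16 sorted arrays, by genotype of the host, orange for population A and blue for C, with a circle for replicate 1 and a triangle for replicate 2. Gpr84 is low in TNFR1-/- arrays (5.46 to 5.77) and in double knockout arrays of C (5.35 and 5.29), Acod1 is lowest in double knockout arrays of C (7.91 and 6.46), and Rrm1 is highest in double knockout arrays (7.51 to 7.68).

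Whether the 2 single effects add up to the double one was tested over 15902 genes, and limma called 1 departure (0.00629%), Cxcl3, a neutrophil-attracting chemokine. Its level was 6.0 and 6.39 in double knockout, 6.37 and 6.23 in WT, 6.38 and 6.95 in TNFR1-/- and 7.13 and 6.88 in Myd88 cKO arrays of A. In C it was 6.39 and 6.82, 6.83 and 6.78, 7.49 and 7.50, and 8.01 and 7.59 in the same order. It was above WT in the single knockouts and near WT in the double knockout, a departure of -1.53 ± 0.22 (adjusted p = 0.0378). Leaving out 1 of the 16 arrays gave 0 to 2 called genes, and 0 for 7 of the 8 arrays of C, all but double knockout array 2. Acod1 and the cell cycle genes were not called in this test.

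A separate readout came from CD11b-enriched cells of EG7 tumours in germline Myd88-/- hosts, 5 arrays against 5 of WT hosts on another chip, where 173 of 12176 genes were called (1.42%), 142 of them lower (1.17%). The count was 86 to 276 leaving out 1 array, with 276 without WT array 4 and 86, 89, 96 and 109 without WT arrays 2 and 3 and Myd88-/- arrays 5 and 3. These arrays share no sample with the sorted ones and carry the Myd88 deletion only. Of the 15 named lower genes, all measured there, 14 had a lower value and 6 were called lower, against 46.6% with a lower value and 1.3% called lower among the genes tested in both. Nfkbiz read 11.22 to 11.38 in WT and 9.24 to 9.87 in Myd88-/- arrays, a difference of -1.73 ± 0.12 (adjusted p = 6.24e-06). Tnf read 11.01 to 11.35 and 9.70 to 9.85 (-1.38 ± 0.08, adjusted p = 3.36e-06), and Gpr84 7.25 to 7.99 and 6.01 to 6.30 (-1.56 ± 0.14, adjusted p = 7.43e-05). Nlrp3 (-1.02 ± 0.13), Acod1 (-0.89 ± 0.10) and Clec4e (-0.43 ± 0.08) were the others called lower. The exception in direction was Mmp14, at 0.09 ± 0.10. Of 13 named higher genes measured there, 10 had a lower value and 3 a higher one, against 46.6% and 53.1% of the genes tested in both, and none was called. Retnla read 8.53 to 9.84 in WT and 7.36 to 9.45 in Myd88-/- arrays (-0.82 ± 0.37), the opposite sign to the sorted arrays, and Rrm1 differed by -0.03 ± 0.12. Of the 113 genes called lower in the 16-array fit 64 were tested there, of which 50 had a lower value (78.1%) and 20 were called lower (31.2%). Both counts include Myd88 itself (-0.75 ± 0.10), the gene deleted in both experiments. Of the 347 called higher 305 were tested, of which 148 had a higher value (48.5%, against 53.1% of all genes) and 1 was called higher.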

How the data were processed

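The sorted arrays are Mouse Gene 2.0 ST arrays of 100 ng total RNA, per the labels' protocols. The authors deposited a log2 value for each probe set. The submitters' processing notes name RMA and Affymetrix Expression Console 1.1. RMA shares probe effects and quantiles over all arrays, so a difference can be compressed by it. Genes were named from the platform annotation, with 1 probe set per gene, that of highest mean, and kept where at least 4 arrays exceeded the 40th percentile of their probe sets. The tests used limma 3.58.1 in R 4.3.3, adjusted by Benjamini-Hochberg across the genes of each fit, and were tested on simulated data. The 8-array fit was the primary test and the 16-array fit the second. With 2 arrays per group, the number of arrays limits the precision. Named genes had both double knockout arrays beyond both WT arrays in A and in C and a common difference of at least 1. All 15 lower genes besides Myd88, and the 15 higher genes of smallest p, were named. The rule for naming was also 5 per direction in other comparisons and 2 per list, and not all of these are given. The comparison and the gene lists were chosen with earlier results of these data known. Promoter sequences and coordinates are RefSeq's, on GRCm38.p6, and the sources used here give no build for the arrays. Alternatives changed the filter, the probe set rule, the normalization, the variance model, the array weights, the replicate block and the arrays used.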

Additional observations from a re-analysis of the deposited data

Results flagged for a closer look

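The effect of the double knockout differed between the populations for 5 genes by limma's test of the difference itself, coded as the effect in C minus that in A. Ccl17 differed by 4.26, Mgl2 by 3.66 and Cd209d by 2.21, and each was above WT in C. Each was above WT in the TNFR1-/- arrays of C as well. In A the signals of Ccl17 and Cd209d lay at about the 40th percentile of the probe sets in both genotypes. H2-M2 differed by -3.64 and Gdpd1 by -2.20, and each was above WT in A and below WT in C.

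Among the 28 named genes measured in the CD11b-enriched germline arrays, with Myd88 and Tnfrsf1a, 3 of 60 groups of 5 held an array apart from the others by Dixon's criterion, which about 1 in 20 groups meets by chance. Rrm1 read 7.71 in Myd88-/- array 3, where the nearest other array read 7.38. Folr2 read 9.12 in Myd88-/- array 1, where the nearest read 8.54. Tnf read 9.70 in Myd88-/- array 2, where the nearest read 9.81.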

How the results depend on the processing

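For the double knockout against WT, the 8-array fit called 0 genes, 2 after repeating quantile normalization, 1 after median centring, 376 with array weights and 460 in the 16-array fit. Population C alone gave 133 and, in alternatives chosen after seeing the data, the 8 arrays as 4 groups gave 25 and the Xist class as a covariate 22. Leaving out 1 array gave 0 to 12, with 12 without double knockout array 2 of A. The 16-array fit of 460 genes, whose own alternatives were also chosen after seeing the data, gave 14 with array weights, 93 with the Xist class and 38 to 1634 leaving out 1 array. Repeating quantile normalization gave 471 there, split into 257 higher and 214 lower. With array weights the other counts were 224 for the double knockout against Myd88 cKO (107 as reported), 213 for Myd88 cKO against WT (62), 66 for TNFR1-/- against WT (18), 2 for the departure (1) and 298 for the germline arrays (173). With all 16 arrays they were 156 for the double knockout against TNFR1-/- (9), 171 for Myd88 cKO against WT, 59 for TNFR1-/- against WT and 10 for the departure. Repeating quantile normalization gave 2 genes for the difference between populations (5) and 5 against TNFR1-/-, where the robust prior with trend gave 26. No filter gave 41 for Myd88 cKO against WT. Population A alone gave 0 against Myd88 cKO, 18 against TNFR1-/-, 27 for Myd88 cKO against WT, 2 for TNFR1-/- against WT and 0 for the departure, and population C alone 268 against Myd88 cKO, 0 against TNFR1-/-, 64 for TNFR1-/- against WT and 0 for the departure. Leaving out 1 array gave 0 to 87 for the difference between populations, 0 to 171 against Myd88 cKO, 0 to 18 against TNFR1-/-, 4 to 60 for Myd88 cKO against WT, 2 to 25 for TNFR1-/- against WT, 0 to 2 for the departure and 86 to 276 for the germline arrays. The cause of these shifts was not tested.

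The replicate numbers are shared by the groups without a stated link. Deviations of same-numbered arrays correlated at 0.135 between WT and double knockout in A and 0.239 in C, and at -0.19 between the double knockout arrays of A and C. In A the values were -0.526 between TNFR1-/- and double knockout, 0.398 between Myd88 cKO and double knockout, and -0.348 between the single knockouts. In C they were -0.116, 0.131 and -0.021 in the same order. With the replicate block the 8-array fit called 0 genes, the 16-array fit 370, the test against TNFR1-/- 0 and the departure 0, and the counts of the other comparisons stayed within 1.5 times. Of the 31 named genes called in the 16-array fit, Nlrp3 lost its call under it (adjusted p = 0.0551 with limma). Over 32 genes, 671 refits of the 8-array and 543 of the 16-array test reversed no direction. For the named genes, the choice by array values largely fixed this in advance. Of these refits, 116 of the 8-array test gained a call and 111 of the 16-array test lost one. Signal limits Bub1b, Cenpf and other genes near the 40th percentile of the probe sets, at 4.92 in the lowest array.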
